A study of Mus musculus with 8 samples.

Results

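In the hippocampus, 2356 regions carried a peak of 5-hydroxymethylcytosine (5hmC) in all 6 lists from young mice and from aged mice in standard cages, and in neither list from aged mice given an enriched environment. They were chosen from these same peak lists: the peaks of all 8 lists were merged wherever they overlapped by at least 1 bp, and regions on chromosomes 1 to 19 narrower than 5000 bp were kept when they had this pattern. They made up 1.5% of the 156660 merged autosomal regions. Presence in the 6 lists and absence from the aged enriched lists are thus the rule itself and are given as a description.

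5hmC is made from 5-methylcytosine by the TET enzymes, and it is more abundant in brain than in most tissues. In neurons the mark is known to lie mainly in the bodies of transcribed genes and at enhancers. It accumulates as neurons mature, and it can be both a step towards removal of methylation and a lasting mark read by its own binding proteins. The hippocampus is needed for forming memories, and housing with toys and exercise is a classic way of altering activity in its circuits.

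All mice were C57BL/6. The young control samples were from mice labelled 6 weeks old in standard cages, and the young enriched samples were from mice of that age exposed to enrichment. The aged control and aged enriched samples were from mice labelled 18 months old under the same 2 kinds of housing. Enriched mice spent 5 hours of each day, for 4 weeks, in a roomier chamber fitted with unfamiliar objects, tunnels, a wheel for exercise and extra bedding, while standard cages held bedding, food and water. Each of the 4 groups had 2 samples, and the labels do not say whether these came from separate mice or from pooled tissue. The 8 lists held 393283 peaks in all, with the fewest (25548) in aged enriched replicate 1 and the most (78980) in young control replicate 2. The number of reads behind each list is unknown. Aged enriched replicate 2 stood apart in shape, its median peak being 430 bp wide where those of the other lists were 650 to 952 bp, and with 72.4% of its peaks at a score of 100 or more against 9.92% to 31.9%. Scores are the values the authors' caller gave to peaks, and they were ranked only within a list. Fixed score cuts were also applied with the same value across lists. The shares above show that a cut at 100 keeps very different parts of the lists, so it does not make them comparable. The lists hold no expression values, so the tissue label could not be checked against marker genes.

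Regions that were missing from both lists of 1 group and present in all other lists were counted in the same way for each group. Aged enriched samples gave 2356 such regions, aged control samples 123 (0.0785% of all merged regions), young enriched samples 28 (0.0179%) and young control samples 8 (0.00511%). The aged enriched lists are also the shortest, with 56380 peaks in the pair against 97260 to 122689 in the other pairs. A shorter list leaves more regions without a peak, and with depth unknown, fewer reads, a weaker capture and less 5hmC cannot be told apart. Nor can fewer cells carrying the mark be told apart from less of the mark per cell in bulk tissue. When every list was reduced to its 25548 highest-scoring peaks, the counts were 811, 94, 30 and 14 in the same order. The aged enriched count was therefore 811 in lists of equal length, and still above those of the other 3 groups. With 2 samples per group a two-sided exact permutation test cannot go below p = 0.333, so these counts have no test.

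**Figure D1:**
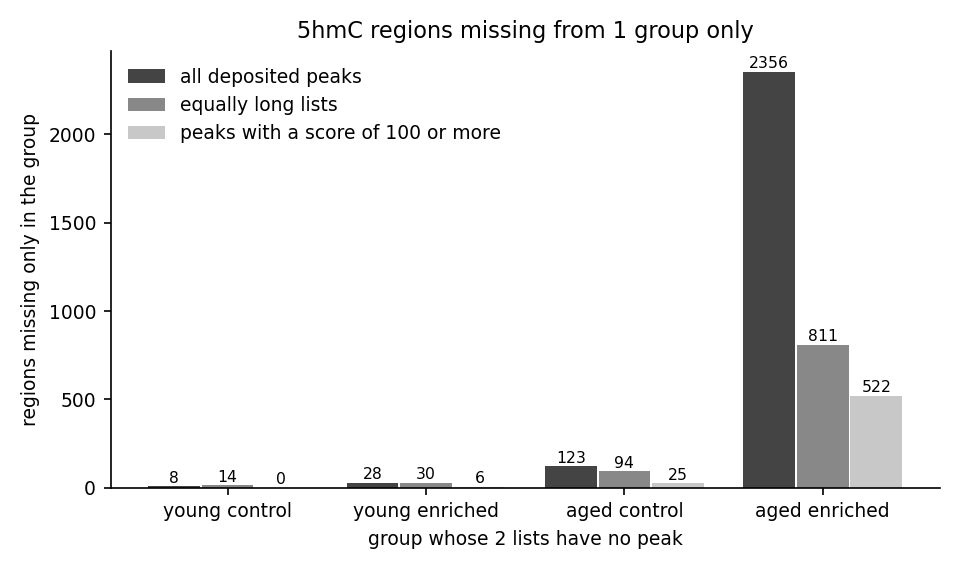
Number of merged regions (vertical axis) that had no peak in either list of 1 group and a peak in all 6 other lists, for each group (horizontal axis), from all deposited peaks, equally long lists, and peaks with a score of at least 100. The aged enriched bars (2356, 811 and 522) stand above those of aged control samples (123, 94 and 25) in each treatment of the lists. The score cut does not even out the lists, as it keeps 9.92% of the peaks of aged enriched replicate 1, the smallest share of any list.

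The same count for single lists showed that each aged enriched list by itself missed many regions that the other 7 lists held. Aged enriched replicate 1 was alone in missing 1538 regions and replicate 2 in missing 1850. Among the other samples the number ran from 21 in young control replicate 2 to 489 in aged control replicate 2, which has 38000 peaks and the shortest list outside the aged enriched group. In equally long lists it was 569 and 963 for the aged enriched replicates and 28 to 254 for the other 6. Replicate 2 of the aged enriched group thus missed more regions alone than replicate 1 in both treatments. Its list has more peaks (30832 against 25548) but covers less of the genome (13.7 Mb against 18.3 Mb), and equally long lists match the number of peaks only.

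The regions missing from both aged enriched lists can be set among the 7574 regions of the same width range with a peak in all 6 other lists. Of these 7574, 31.1% (95% Wilson interval 30.1% to 32.2%, counting error only) were in neither aged enriched list, 24.4% were in replicate 1 only, 20.3% in replicate 2 only, and 24.2% in both. Replicate 1 missed 51.4% of the 7574 and replicate 2 missed 55.5%. The second list missed 60.5% of the regions that the first had missed and 50.3% of the regions that the first held. Absence from 1 aged enriched list and from the other went together to that extent.

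Strength in the other 6 lists went with absence. For each region the best peak score was turned into a percentile of its own list, meaning the share of that list's peaks at or below it, and the 6 percentiles were averaged. When the 7574 regions were ranked by this average and cut into 3 equal groups, both aged enriched lists missed 43.2% of the weakest group (1092 of 2525), 32.8% of the middle group (829 of 2524) and 17.2% of the strongest group (435 of 2525). In the weakest group, aged enriched replicate 2 missed 67.1% of the regions that replicate 1 had missed and 65.1% of those it held, which differ by little. The corresponding shares in the strongest group were 50.5% and 39.4%. Cut into 10 equal groups, the gap was widest in the strongest, where the 2 shares were 41.3% and 26.2%. They were 46.1% and 42.7% in the group before it and 56.25% and 53.2% in the one before that. In the next weaker group they were 55.1% and 47.4%, so the gap did not widen steadily with strength. These are shares of regions within the same lists, which are not replicates, and have no test.

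**Figure D2:**
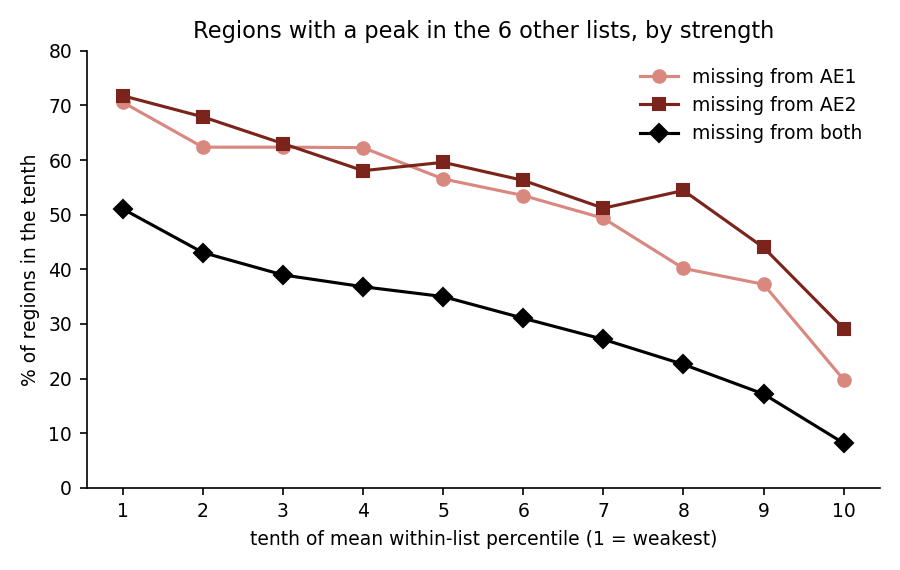
Percent of regions (vertical axis) missing from aged enriched replicate 1 (AE1), replicate 2 (AE2) or both, among the 7574 regions with a peak in the 6 other lists, cut into 10 equal groups by their mean within-list percentile (horizontal axis, 1 is weakest). The share missing from both falls from 51.1% in the weakest group to 8.18% in the strongest.

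Width followed the same order as strength. The narrowest of 3 equal groups (741 to 1692 bp) had 41.2% of its regions missing from both aged enriched lists, the middle group 32.8% and the widest (2525 to 4993 bp) 19.2%. A wide merged region also offers more length for a peak of any list to overlap. Aged enriched peaks can widen a merged region, but with widths taken from the peaks of the 6 other lists alone the shares were 41.03%, 32.8% and 19.4%. The 2356 regions had a median width of 1790 bp (quartiles 1345 and 2366 bp). Regions with a peak in all 8 lists (1830 of the 7574) had a median width of 2536.5 bp, and those with a peak in 1 aged enriched list lay between, at 2073 bp for replicate 1 only and 2078.5 bp for replicate 2 only.

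Most of the 2356 regions were above the middle of the lists that held them. High ranks are favoured by the rule, which asks for a peak in all 6 lists, and by ranking the best peak of a region. The median percentile of the 2356 was 73.4 and 84.7 for young control, 78.1 and 79.5 for young enriched, and 76.2 and 70.3 for aged control lists. Between 69.6% of them (aged control replicate 2) and 88.6% (young control replicate 2) ranked above the median peak of the list. Regions with a peak in all 8 lists ranked higher in each of the 6, with medians from 86.1 (aged control replicate 2) to 95.4 (young control replicate 2). Each list held 480 to 799 of the 2356 regions at or above its percentile 90. The lowest of the 6 percentiles fell in aged control replicate 2 for 26.2% of regions and in young control replicate 2 for 6.71%, which are the shortest and the longest of the 6 lists.

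**Figure D3:**
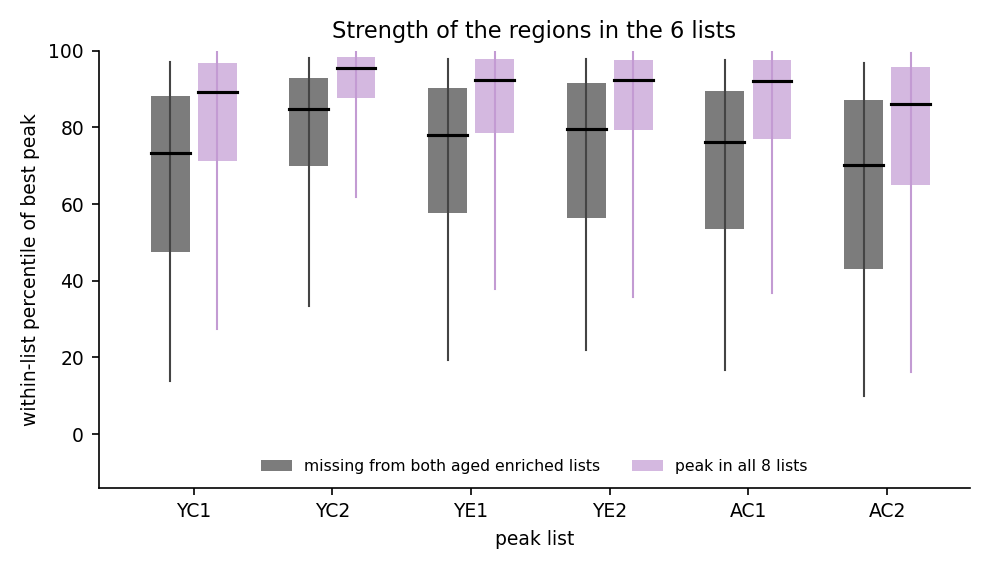
Within-list percentile of the best peak (vertical axis) in each of the 6 lists (horizontal axis; YC young control, YE young enriched, AC aged control) for regions missing from both aged enriched lists and for regions with a peak in all 8 lists. Boxes span the quartiles, black lines are medians and thin lines run from the 5th to the 95th percentile of regions; the medians of the missing regions lie between 70.3 and 84.7, below those of the shared regions in each list.

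Both thresholds of the rule had regions close to them. In 1029 of the 2356 regions (43.7%) the weakest of the 6 peaks had a score under 60. The lowest score in those lists was 50. In 190 regions (8.06%) all 6 scores were 100 or more. Neither share was computed for regions with an aged enriched peak, so neither is shown to be particular to the missing regions. On the other side, 614 of the 5218 regions left out because of an aged enriched peak had no such peak with a score of 60 or more. A further 4708 regions had a peak in 5 of the 6 lists and in neither aged enriched list, and 1843 of these lacked only the peak of aged control replicate 2. The widest regions kept were on chromosome 8 at 48973321 to 48978206 (4886 bp) and chromosome 1 at 91512058 to 91516925 (4868 bp). The narrowest of the 21 regions left out by width alone were on chromosome 5 at 102387126 to 102392126 (5001 bp) and chromosome 11 at 116477600 to 116482609 (5010 bp). All coordinates are those of the deposited lists (mm9), counted from 1.

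Within the regions, each list usually had a single peak. In 1672 of the 2356 regions (71.0%) this held for all 6 lists at once, against 45.7% of the regions with a peak in all 8 lists. A stretch under peaks of all 6 lists at once was present in 2042 regions, and over the 2356 its median length was 629 bp. In regions with a peak in all 8 lists, which are wider, this stretch was longer, with a median of 781 bp, and it was lacking in 226 of 1830. As a share of region width, its median was 38.2% in the missing regions and 34.7% in those with a peak in all 8 lists. The midpoints of the best peaks of the 6 lists spanned a median of 436 bp, against 641.5 bp in regions with a peak in all 8 lists, and in 507 regions they lay within 200 bp of each other. The missing regions are also narrower, which limits how far midpoints can lie apart. The other 314 of the 2356 held no base under peaks of all 6 lists, so there the merged region chains neighbouring peaks.

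The strongest regions were ranked by the lowest of their 6 percentiles. The first was on chromosome 18 at 65782866 to 65785412, with percentiles of 99.6 to 99.8. Scores there were 473 and 578 in young control, 431 and 469 in young enriched, and 522 and 307 in aged control samples. The length under its peaks was 2421 and 2547 bp in young control, 2395 and 2168 bp in young enriched, and 2438 and 1867 bp in aged control samples. All 6 lists thus placed this region among their strongest 1% of peaks. Its nearest aged enriched peaks were 1.78 kb (replicate 1) and 1.38 kb (replicate 2) away.

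Chromosome 6 at 115916203 to 115919933 came next. Its scores were 358 and 548 in young control, 514 and 260 in young enriched, and 294 and 357 in aged control samples. Peaks covered 3688 and 3612 bp there in young control, 3576 and 2240 bp in young enriched, and 2243 and 2658 bp in aged control samples. As percentiles of their lists, the young control peaks ranked at 99.5 and 99.7 and the young enriched peaks at 99.9 and 98.4, so the housing groups overlapped in young mice by rank. Both young enriched lengths were below both young control lengths, the nearest pair being 3576 and 3612 bp. How many of the 7574 regions are ordered this way was not counted. The test of lengths given further below called 0 regions between these 2 groups.

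On chromosome 8 at 28230680 to 28233044 the 6 peaks were similar in length, with midpoints spanning 410.5 bp. They covered 1736 and 2050 bp in young control, 1935 and 2081 bp in young enriched, and 1859 and 1841 bp in aged control samples. Their scores were 252 and 355, 346 and 376, and 375 and 280 in the same order. The aged control lengths lay inside the range of the young lengths.

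On chromosome 10 at 41915578 to 41918049 the scores were 289 and 514 in young control, 290 and 319 in young enriched, and 350 and 192 in aged control samples. Peaks covered 1434 bp in aged control replicate 2, the lowest of the 6, and 1603 to 2324 bp in the others. Chromosome 3 at 38352662 to 38356788 ranked at percentiles 99.8 and 99.9 in young control, 99.5 and 99.6 in young enriched, and 98.9 and 97.7 in aged control samples. Both aged control ranks there were below the 4 young ones, and the region covers 4127 bp. The number of regions ordered this way was not counted, so no age difference is read from this ordering. Low ranks were common in aged control replicate 2, which held the lowest of the 6 percentiles in 26.2% of the missing regions.

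A second region of chromosome 8, at 26664814 to 26666719, had midpoints within 142 bp in the 6 lists and 1398 to 1906 bp under peaks. Another, at 73813685 to 73815357, had midpoints within 105 bp and 1263 to 1673 bp under peaks, and its nearest aged enriched peaks were 13.6 kb and 83.2 kb away. The other 5 of the 12 strongest were on chromosome 5 (125626603 to 125628980), chromosome 19 (5080744 to 5083377), chromosome 10 (69611069 to 69614660), chromosome 4 (57867311 to 57871698) and chromosome 17 (28469268 to 28471644). Their lowest percentiles ran from 94.6 (chromosome 17) to 96.1 (chromosome 5). The chromosome 10 region had an aged enriched peak 0.263 kb beyond its edge, while the chromosome 19 region had none within 16.97 kb.

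**Figure D4:**
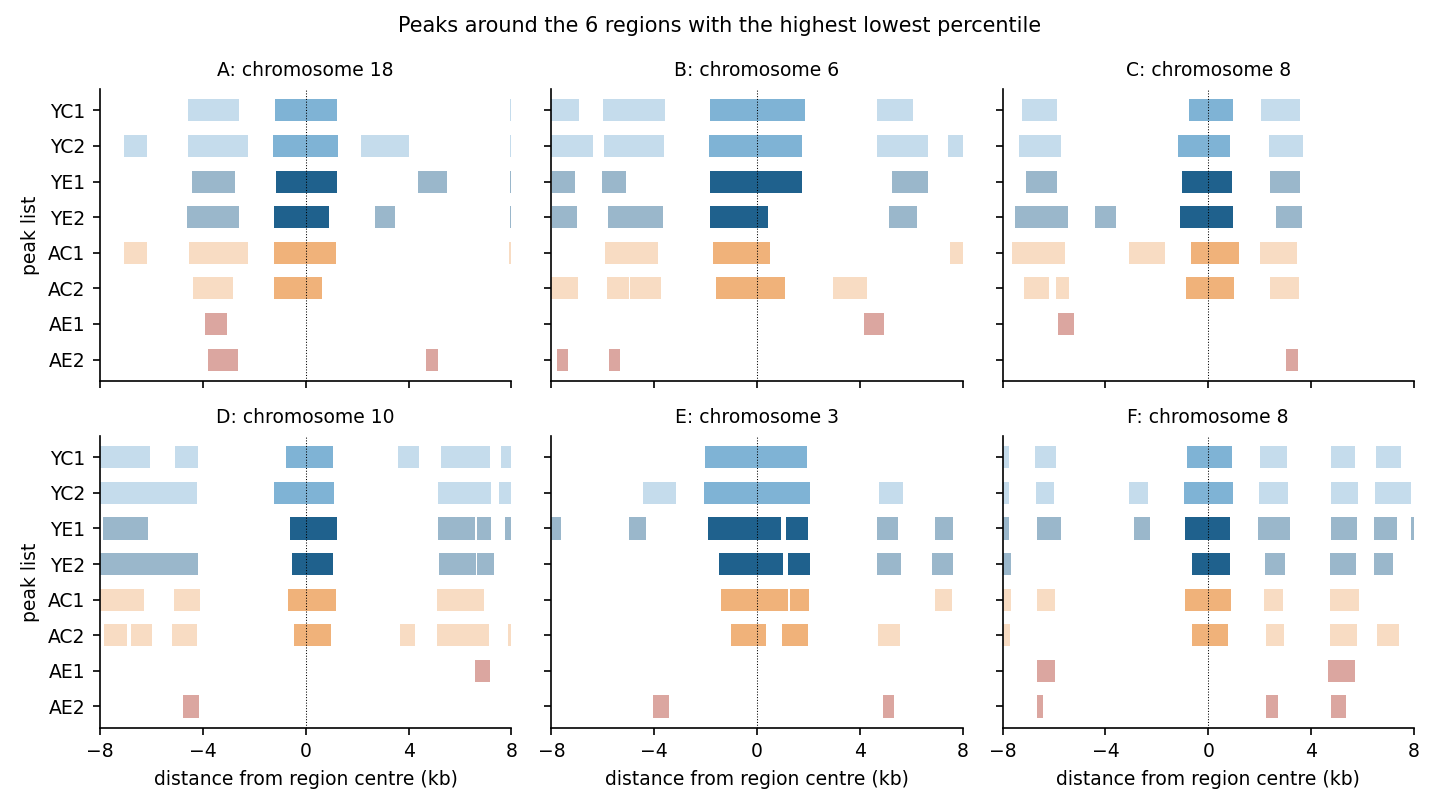
Peaks of the 8 lists (rows; AE aged enriched) within 8 kb of the centre of the 6 strongest regions (panels A to F, by chromosome), against distance from the centre in kb, with peaks inside the region in full colour and neighbouring peaks paler. No aged enriched peak falls in any of the 6 regions, and in each panel at least 1 aged enriched list has a peak elsewhere in the window.

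Aged enriched peaks were often found beside the regions. The nearest peak of either aged enriched list lay at a median of 3.27 kb from the region's edge (quartiles 1.30 and 7.88 kb), and it was under 1 kb away for 469 regions (19.9%) and under 5 kb for 1488 (63.2%). Distances to the 2 lists were alike, with medians of 6.21 kb for replicate 1 and 6.24 kb for replicate 2. A peak outside the region and within 10 kb of it was found in 62.1% and 63.1% of the 2356 regions in the aged enriched lists, and in 76.4% (aged control replicate 2) to 92.2% (young control replicate 2) in the other 6, in the order of list length at both ends. Around regions with a peak in all 8 lists the share was 70.7% and 72.7% in the aged enriched lists and 83.6% to 94.97% in the other 6. It was thus lower around the missing regions in every list, not in the aged enriched lists alone.

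**Figure D5:**
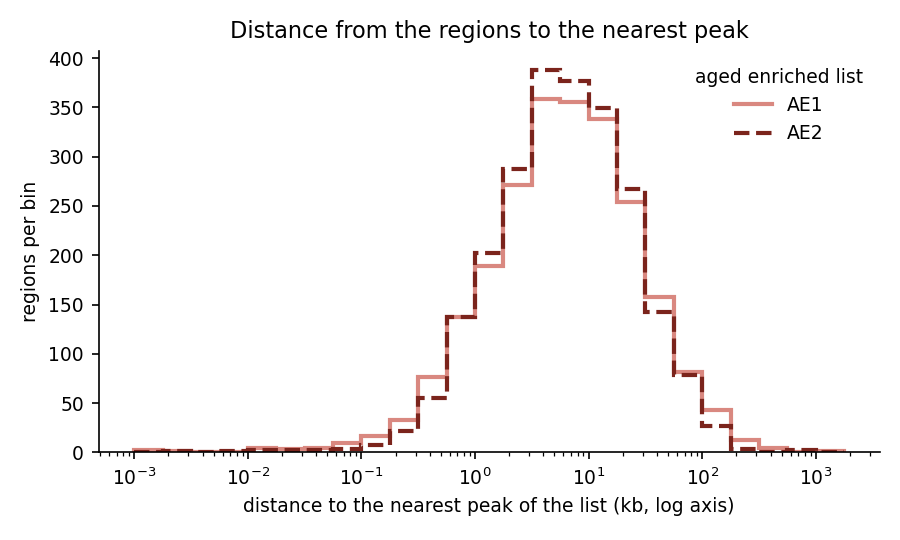
Number of regions (vertical axis) by distance from the region's edge to the nearest peak of aged enriched replicate 1 (AE1) or replicate 2 (AE2), in kb on a log axis; touching peaks are drawn at 1 bp. The 2 curves nearly coincide, with medians of 6.21 and 6.24 kb.

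A minority of regions lay in stretches without aged enriched peaks. For 42 regions (1.78%) neither list had a peak within 50 kb. The farthest was on chromosome 7 at 13862121 to 13862999, which is 233 kb from a peak of replicate 2 and 246 kb from one of replicate 1. It is a narrow region of 879 bp, with percentiles of 90.8 and 61.1 in young control, 72.2 and 8.54 in young enriched, and 79.3 and 27.7 in aged control samples. It was thus weak in replicate 2 of both the young enriched and the aged control group. The next were 169.5 kb away on chromosome 9 (30234917 to 30237215), 134.5 kb on chromosome 8 (98371826 to 98373473), and 132.7 and 129.4 kb on chromosome 5 (90112879 to 90114209 and 4964097 to 4965270). The chromosome 9 and chromosome 8 regions ranked at or above percentile 62.8 and 63.1 in each of the 6 lists, and those on chromosome 5 dropped to 29.3 and 23.4.

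The regions were found on all 19 autosomes. Among the regions with a peak in the 6 other lists, the share missing from both aged enriched lists ran from 28.01% on chromosome 17 (128 of 457) to 34.9% on chromosome 6 (109 of 312). Chromosome 5 had the most of them (202 of 605, 33.4%) and chromosome 16 the fewest (60 of 198, 30.3%), both shares being near the 31.1% over all chromosomes. Per Mb up to the last peak, they were densest on chromosome 11 (1.46) and sparsest on chromosome 3 (0.564). The shares missing there were 30.7% and 33.2%, so density did not follow the share.

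Within chromosomes they occurred in 918 of the 1259 windows of 1 Mb that held a region of the 6 lists, and 132 windows held 5 or more. The fullest window was 140 to 141 Mb of chromosome 4, with 12 missing of 32 regions (37.5%). Peaks there numbered 95 and 159 in young control, 126 and 135 in young enriched, 183 and 122 in aged control, and 63 and 40 in aged enriched lists. The window at 117 to 118 Mb of chromosome 11 had 11 of 26, and that at 117 to 118 Mb of chromosome 4 had 10 of 23. A tie at 10 joined the last of these with 4 other windows, of which 31 to 32 Mb of chromosome 17 had the highest share (10 of 17, 58.8%; singled out after its value was seen). The aged enriched lists had fewer peaks than each of the other 6 in these 4 windows. They are also the shortest lists, and the windows were picked for regions without their peaks, so lower counts are favoured by the choice.

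Some missing regions lay near each other. Another missing region lay within 5 kb for 190 of the 2356 (8.06%), in 90 groups, of which 8 had at least 3 regions. The share was not computed for regions with an aged enriched peak, so whether the missing regions cluster was not tested. The 2 groups of 4 were on chromosome 12 at 100526050 to 100543960 and on chromosome 8 at 119884652 to 119896366, and were singled out for their size.

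The rule asked for a peak of any length in each of the 6 lists, and the length of those peaks could be compared between groups only where all 6 had one. A region whose peak was lost in any of the 6 lists is outside this comparison, so losses of that kind cannot appear in it. All 7574 regions entered a limma fit of log2 length with 3 groups, centred on each sample's median, and p-values were adjusted by the Benjamini-Hochberg method over the 7574. Between young enriched and young control samples limma called 0 regions (0% of all tested), with 250 at an unadjusted p under 0.05 (3.3% of all, and 79 or 3.35% of the missing regions). The median log2 difference in length was 0.02 over the missing regions and 0.019 over all, with a median SE of 0.36 for a single region. The limma test of aged control against young samples likewise gave 0 calls (0%), and 612 regions had an unadjusted p under 0.05 (8.08% of all, and 189 or 8.02% of the missing regions). The median log2 difference was 0.045 over the missing regions and 0.054 over all.

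The regions missing in aged enriched samples had length differences close to those of all regions tested, in either contrast. They are themselves part of the regions tested, and centring on each sample's median draws the median differences towards 0, so some closeness is built in. Before centring, lengths were lower in aged control than in young samples by a median log2 of −0.21 over all regions and −0.22 over the missing ones. The shift was thus not particular to the missing regions, nor was it shared by both aged control samples. Over the missing regions the median length was 1136 bp in aged control replicate 1 and 896 bp in replicate 2. In the young samples it was 1121 to 1390 bp. In simulated data this test recovered 0% of regions changed 2-fold and 60% of those changed 4-fold between aged control and young samples, so changes of 2-fold in single regions would not have been detectable.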

How the data were processed

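5hmC-bearing DNA was captured from sonicated hippocampal DNA after a glucose carrying an azide had been put on 5hmC and coupled to biotin, and was then amplified and sequenced, per the labels' protocols. MACS 1.4.2, Bowtie 0.12.9 and CASAVA 1.4 are listed, with mouse build mm9, per the submitters' processing notes. The authors deposited 1 peak list per sample with start, end and score. In MACS output this score is a multiple of the −log10 p-value. Caller settings, background library and read numbers were not given in the sources used here, so no value is corrected for depth.

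Groups follow age and housing as labelled. Peaks were merged and counted with Python 3.11.15 and pandas 2.3.3. A list counted as present in a region with at least 1 bp of peak. Length under peaks was tested with limma 3.58.1 (R 4.3.3) with an intensity trend, on the 6 lists outside the aged enriched group, at an adjusted p of 0.05. The model has 3 residual degrees of freedom. Nothing says that samples of a group are separate animals, so p-values reflect the spread of these samples alone, possibly a technical one. The fit was tested on simulated lengths.

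The regions, lists and tests were chosen with earlier results of these data known. The regions named are the 12 with the highest lowest percentile, the 5 farthest from an aged enriched peak, those at the width limit, the 3 fullest windows, and any passing limma (0). A genome or gene annotation of mm9 was not used here, so neither genes nor sequences are given and the planned gene lists were not applied. Alternatives changed the score floor, list length, merging, overlap, margin, width limit, normalization and the samples included.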

Additional observations from a re-analysis of the deposited data

How the results depend on the processing

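The number of regions missing only in aged enriched lists (2356) stayed within 1.5 times under merging within 500 bp, a minimum of 100 bp under peaks, a margin of 1000 bp and no width limit. It was 522 with a score of at least 100 and 811 in equally long lists. Of the 2356, 188 overlapped the former and 729 the latter; the floor leaves 9.92% of the peaks of aged enriched replicate 1. Leaving out 1 sample gave 2520 to 4216, with 4205 without aged enriched replicate 1, 3895 without replicate 2 and 4216 without aged control replicate 2, where fewer conditions had to be met. The percent of regions of the 6 lists that were missing (31.1%) was 37.6% with a score of at least 100, 23.6% in equally long lists, 30.0% with merging within 500 bp, 24.9% with a margin of 1000 bp, 29.9% with no width limit, and 32.1% to 55.6% without 1 sample. The weakest minus the strongest group by percentile (26.02 points) was 31.0 with a score of at least 100, 22.3 with a margin of 1000 bp and 23.3 to 30.3 without 1 sample, higher among weak regions in each. The share missing differed by 6.93 points between the highest and the lowest chromosome, by 37.2 points with a score of at least 100, where a chromosome holds as few as 23 regions of the 6 lists, by 10.9 points in equally long lists, and by 6.41 to 9.88 points without 1 sample. The alternatives for the groups by percentile, chromosome and width were added after seeing the data.

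Regions missing only in young control samples (8) numbered 0 with a score of at least 100, 14 in equally long lists and 15 with merging within 500 bp. Those missing only in young enriched (28) and aged control samples (123) numbered 6 and 25 with a score of at least 100.

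Limma called 0 regions in both contrasts under every alternative that kept all 6 samples. Where all 7574 regions were tested, limma gave an unadjusted p under 0.05 to 2.93% to 4.46% (young enriched against young control) and 5.93% to 9.80% (aged control against young). With a score of at least 100, 1387 regions were tested, and the limma shares were 4.18% and 8.72%. A minimum of 200 bp removed no region. The median log2 difference over the missing regions turned from 0.02 to −0.071 without centring and to −0.066 without young control replicate 2 (young enriched minus young control), and from 0.045 to −0.22 without centring and to −0.011 without aged control replicate 2 (aged control minus young). Without any 1 of the 6 samples it ran from −0.066 to 0.085 and from −0.011 to 0.13. Same-numbered samples did not deviate together in length (correlations of −0.056 to 0.0084 across regions), and a replicate block also called 0 regions. These correlations cannot exclude that same-numbered samples were handled together. Read depth, which is unknown, limits each statement on absence.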
